A study of Homo sapiens with 12 samples.

Results

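The response to severe hypoxia that human bronchial epithelial cells (HBEC) share whatever form of EGFR they express was measured by setting all 6 hypoxic arrays against all 6 aerobic arrays, which are the 12 of 12 arrays in the study. HBEC are cells of the lining of the large airways, here kept in a serum-free keratinocyte medium with EGF and bovine pituitary extract. Each line was made to express, stably, L858R, E746-E750 or wild type (WT) EGFR, the epidermal growth factor receptor. The hypoxic groups were L858R, E746-E750 and WT cells kept for 24 h in 0.1% oxygen with 5% CO2, and the aerobic groups were the same 3 lines in 21% oxygen with 5% CO2, with 2 arrays in each of the 6 groups. All groups carried an introduced EGFR form; the promoter that drives it, and whether a line is 1 clone, are not given in the sources used here. Whether both samples of a group are separate cultures is not stated in the labels, and p-values measure only the spread between these samples. The 12 arrays share 1 number in the labels and differ by a letter, with aerobic samples on the first 6 letters and hypoxic samples on the last 6, so oxygen and place among the letters cannot be told apart.

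Cells sense oxygen through prolyl hydroxylases that use it to mark the alpha subunits of hypoxia-inducible factor (HIF) for destruction by the VHL ubiquitin ligase. When oxygen falls, HIF alpha subunits persist, pair with ARNT and bind DNA at sites with the core ACGTG or GCGTG, and raise genes of glucose uptake, glycolysis, blood vessel growth, collagen modification and mitophagy. Severe hypoxia also slows energy-costly work such as ribosome production and cell division. In bulk RNA, fewer cells of a type and less RNA per cell cannot be told apart.

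Levels below are log2 intensities after background correction and quantile normalization, a difference is the hypoxic minus the aerobic mean on that log2 scale with its standard error (SE), and a gene was called at an adjusted p under 0.05 (limma with EGFR form as covariate, Benjamini-Hochberg over 11926 genes). Where 3 values are given together, they are the lowest, the median and the highest of 6 arrays. The arrays detected between 14159 and 17641 probes in hypoxic cells, with L858R replicate 2 the lowest, and between 16485 and 18229 in aerobic cells. The replicates correlated at 0.849 in L858R, 0.983 in E746-E750 and 0.991 in WT hypoxic cells, and at 0.996 to 0.997 in the aerobic groups. For the 3213 genes with at least 2 probes, the gap between the 2 brightest probes was set against its mean over the aerobic arrays. That gap had moved by over 2-fold in 45.8% and 18.1% of genes on the L858R hypoxic arrays, 27.3% and 20.2% on the E746-E750 hypoxic arrays and 3.08% and 2.68% on the WT hypoxic arrays, against at most 0.0311% on any aerobic array. The part of this in the results was not tested, and counts for a gene group are also given without the 4 mutant hypoxic arrays where that moves a count by over 1.5 times or adds calls to a direction that had none. In that alternative, chosen after seeing the data, the difference is between the 2 hypoxic and 2 aerobic arrays of WT cells, and the mutant aerobic arrays add only to the estimate of the spread. Where no array of the dimmer group detected a probe, the fold is a lower bound against the lowest detected level of each array. The number of arrays that detected a probe is given beside a value where it was 3 or fewer of 6. RPS7 and PRMT6 by the second probe and MLX, MRPL12, MRPL20 and SRSF10 by the first were detected on 4 of 6 hypoxic arrays, and HMOX1 on 4 of 6 aerobic arrays. On 5 of 6 hypoxic arrays were NDUFS1, PGAM1, PRMT6, PYGB and RUVBL1 by the first probe and CENPA, ELOVL6, GART, HIF1A, MCM3, MRPL24, NOP16, RUVBL1, SRSF10 and TSPAN3 by the second.

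Hypoxia moved a large part of the measured genes. In all, 4399 of 11926 genes were called, 36.9% of those tested: 2359 rose (19.8%) and 2040 fell (17.1%), among them 639 that rose and 593 that fell by at least 2-fold. Counts of called members of a gene group below stand against the shares of 19.8% and 17.1%. Of the 4399 genes, 4054 had the same direction in each of the 3 lines. Over all 11926 genes tested, called or not, 3546 were higher and 2880 lower in each of the 3 lines. The direction in a line is the sign of its difference, with no test for that line. The calls rest on the same arrays, so this agreement of direction is not separate support for them. The shared response was taken as the called genes with 1 direction in each line and, where a gene had 2 or more probes, with both of its brightest probes called that way; it held 3353 genes (28.1%), of which 1736 rose and 1617 fell. Without the 4 mutant hypoxic arrays 5650 genes were called (47.4%), 2413 higher (20.2%) and 3237 lower (27.1%), and the counts of gene groups in that alternative stand against these shares. Of the called genes, 204 that rose were detected on no aerobic array and 107 that fell on no hypoxic array, so that they passed the filter through 1 oxygen group alone.

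The demand for 1 direction in each line removed 345 of the 4399 called genes. Of the rest, 1230 had 2 or more probes, and the demand on both probes removed 701 of them: in 235 the second probe lay in the other direction, and in 466 it lay in the same direction without meeting the rule. Probes of a gene beyond its 2 brightest were not used. Of 8713 genes with 1 probe, 2824 belonged to the shared response (32.4%), against 529 of the 3213 genes with 2 or more (16.5%). Among 1354 called genes with 2 or more probes, the second probe moved in the direction of the first in 79.9% over all lines, and in 72.7% in L858R, 74.9% in E746-E750 and 83.1% in WT cells. Over all named probes 5846 of 16023 were called (36.5%). In 45 genes (1.4%) both probes were called but in opposite directions. A gene of the shared response with 1 probe therefore rests on a measurement with no such check.

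**Figure D1:**
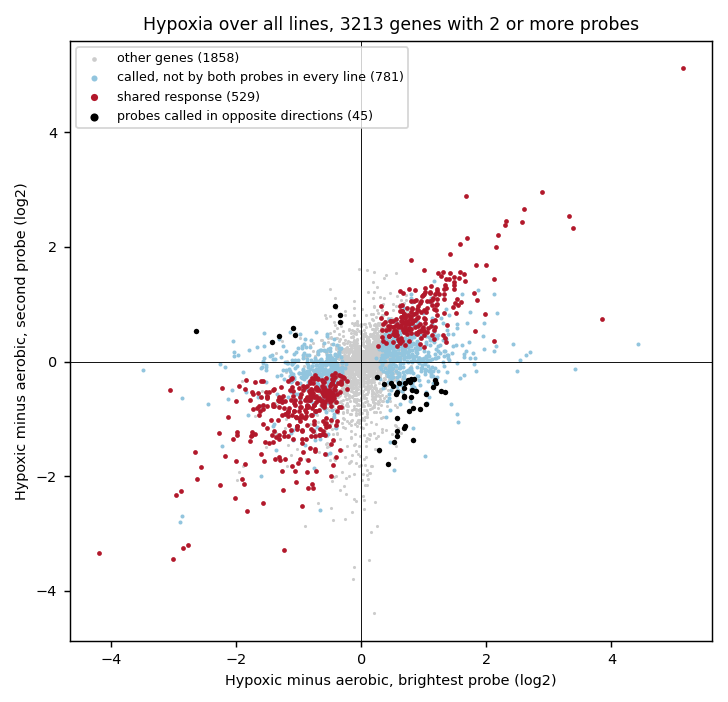
Hypoxic minus aerobic difference (log2) over all lines by the brightest probe (horizontal) and the second probe (vertical) of the 3213 genes with 2 or more probes. The 529 genes of the shared response lie in the lower left and upper right, with IGFBP3 highest by both probes, and the 45 genes whose probes were called in opposite directions lie in the other corners.

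A narrower set of 319 genes (2.67%) moved by at least 2-fold in each line, a size chosen after seeing the data; 284 of them have 1 probe and 35 moved that far by both probes (1.09% of genes with 2 or more). The 18 that rose by both probes were IGFBP3, PFKFB3, HK2, TP53INP1, VEGFA, CA2, FAM13A, WSB1, SPRY1, NUPR1, CCNG2, CREBRF, ACSS2, UBR3, TMOD2, ULK1, CLDND1 and TIMM21. The 17 that fell by both were NOP16, RUVBL1, METTL1, NOP2, PRMT6, MYC, GPATCH4, MRPL24, WDR12, PUS1, GART, DCTPP1, ALDH1A3, MRPS12, NOP56, POLR1C and SFXN4. Among the genes that fell, NOP16, NOP2, NOP56, WDR12 and POLR1C serve ribosome production, METTL1 and PUS1 modify tRNA, and MRPL24 and MRPS12 are proteins of the mitochondrial ribosome. These names cover only genes that have 2 probes, and all were selected by size, so their differences are a description.

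**Figure D2:**
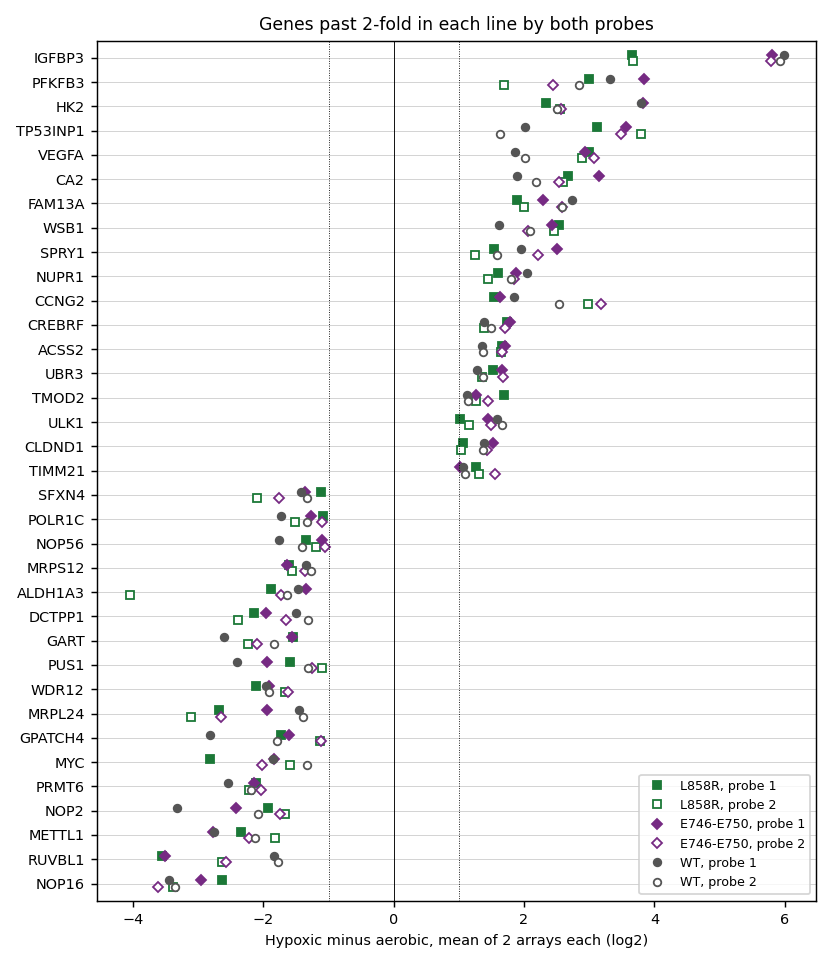
Hypoxic minus aerobic difference (log2, means of 2 arrays each) in L858R, E746-E750 and WT cells for the 35 genes past 2-fold in each line by both probes; filled symbols are the brightest probe, open symbols the second, and dotted lines mark 2-fold. The 18 genes that rose lie right of the dotted line and the 17 that fell lie left of it in every line, and IGFBP3 stands farthest to the right.

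IGFBP3, a secreted protein that binds insulin-like growth factors, had the highest rise among genes measured by 2 or more probes. Its level was 9.75, 12.88 and 13.25 in hypoxic cells, against 6.67, 6.90 and 7.43 in aerobic cells. All hypoxic arrays lay above all aerobic arrays, and the lowest hypoxic value was that of an L858R array. The difference was 5.15 ± 0.37 (adjusted p = 3.98e-06), a 35.5-fold rise, and the second probe gave 5.12 ± 0.33. By line it was 3.66 in L858R, 5.80 in E746-E750 and 5.98 in WT cells, and the size differed between lines (F test, adjusted p = 0.0328).

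PFKFB3 makes the signal metabolite that drives phosphofructokinase, the gate of glycolysis. It had 13.07, 13.26 and 13.83 in hypoxic cells and 9.73, 9.99 and 10.25 in aerobic cells, with no overlap. It rose by 3.39 ± 0.14 (adjusted p = 9.89e-08), with 2.997 in L858R, 3.84 in E746-E750 and 3.31 in WT cells, and by 2.32 ± 0.44 with the second probe. HK2, the hexokinase that traps glucose in the cell, had 9.85, 12.44 and 12.79 in hypoxic and 8.19, 8.65 and 8.999 in aerobic cells. Its lowest hypoxic array, L858R replicate 2, lay nearest the aerobic range while the other hypoxic arrays stood well apart. It rose by 3.32 ± 0.44 (adjusted p = 0.000225), and by 2.54 ± 0.12 with the second probe, which gave 2.56 in L858R, 2.56 in E746-E750 and 2.51 in WT cells.

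VEGFA, the growth factor that draws blood vessels to tissue short of oxygen, had 10.94, 11.10 and 12.13 in hypoxic cells, against 8.35, 8.56 and 9.14 in aerobic cells. It rose by 2.60 ± 0.23 (adjusted p = 1.55e-05), with no overlap and with 3.002 in L858R, 2.94 in E746-E750 and 1.86 in WT cells. The second probe gave 2.66 ± 0.17. The values in the mutant lines were higher than in WT cells by both probes, and a difference in size between lines was not called (F test, adjusted p = 0.231). TP53INP1, an autophagy and p53 partner protein, rose by 2.90 ± 0.29 and 2.97 ± 0.33 by its 2 probes (adjusted p = 3.89e-05 and 9.69e-05). CA2, a carbonic anhydrase that turns carbon dioxide into bicarbonate, rose by 2.57 ± 0.23 and 2.44 ± 0.21 by its 2 probes, with 2.67 in L858R, 3.15 in E746-E750 and 1.89 in WT cells by the brightest probe. WSB1, a subunit of an E3 ubiquitin ligase known to act on VHL, rose by 2.19 ± 0.19 and 2.20 ± 0.19. FAM13A, a protein linked to lung disease by its gene's variants, rose by 2.30 ± 0.21 and 2.39 ± 0.15 by the 2 brightest of its 4 probes. The third, detected on 1 of 6 aerobic arrays, gave 2.12 ± 0.16. The fourth, detected on 2 of 6 hypoxic and 0 of 6 aerobic arrays, was not called, with 0.19 ± 0.10. TMEM45A, a membrane protein, rose by 2.31 ± 0.36 and 2.45 ± 0.20, with 0.90 in L858R, 2.91 in E746-E750 and 3.13 in WT cells.

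**Figure D3:**
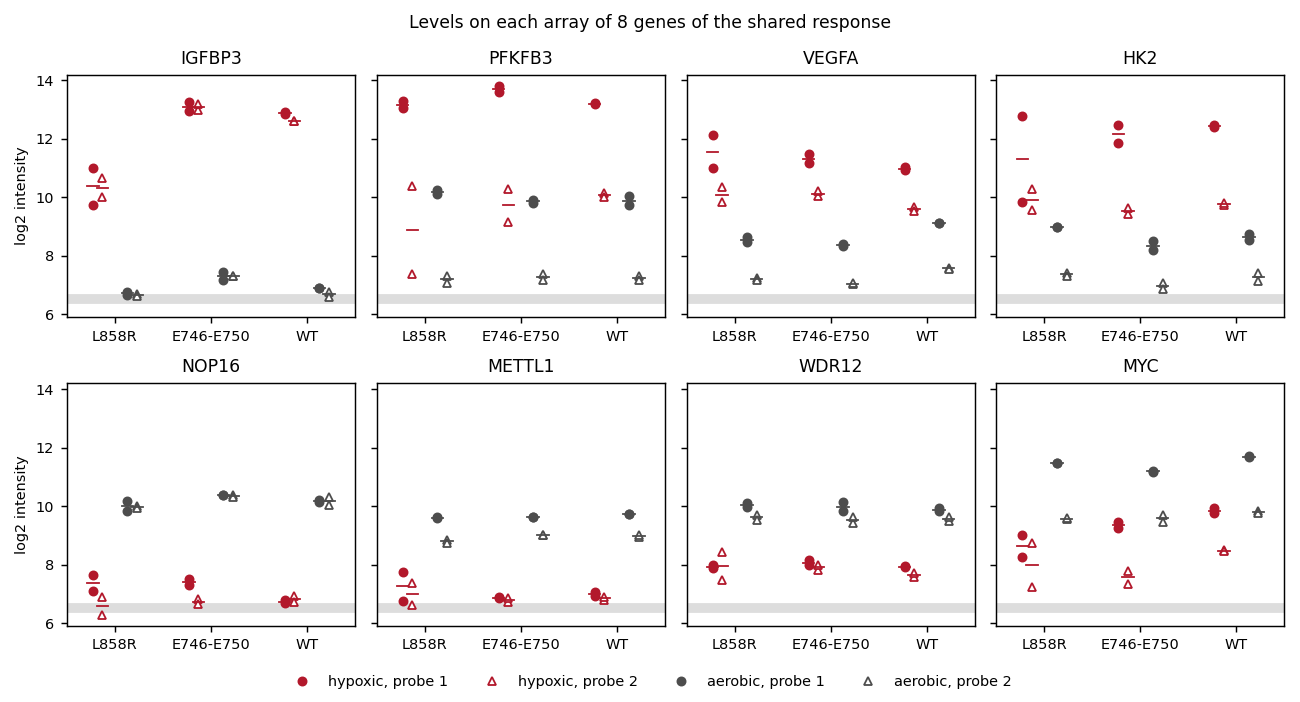
Log2 intensity on each of the 12 arrays for 4 genes that rose (top) and 4 that fell (bottom), by line, with hypoxic arrays in red left of aerobic arrays in grey; filled circles are the brightest probe, open triangles the second, short lines are means of 2 arrays, and the grey band is the range of the arrays' detection levels. By the brightest probe the hypoxic and aerobic arrays do not overlap for any of the 8 genes; the second probe of PFKFB3 has 1 L858R hypoxic array near the aerobic values.

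The list of known HIF targets held 28 measured genes, and 25 of them rose and 1 fell, against 19.8% and 17.1% of all genes; 23 of the 25 belonged to the shared response. The median difference over the 28 was 2.18, against 0.06 over all genes. The counts were 26 and 1 without the 4 mutant hypoxic arrays, and 22 and 2 without WT hypoxic replicate 1 alone. Of the 7 targets with 2 or more probes, 4 rose by both: PFKFB3, VEGFA, WSB1 and BNIP3L. Among those with 1 probe, ANKRD37, a small nuclear ankyrin-repeat protein, rose by 4.03 ± 0.37, HILPDA, an inhibitor of fat breakdown, by 3.38 ± 0.12, and ADM, the vessel-relaxing peptide adrenomedullin, by 2.43 ± 0.11. KDM3A, a histone demethylase, had 9.01, 9.54 and 10.29 in hypoxic cells and 6.65, 6.84 and 6.98 in aerobic cells, and rose by 2.72 ± 0.18 (adjusted p = 2.13e-06). RIOX2, a ribosomal oxygenase, was the 1 member that fell, with -0.89 ± 0.12 and detection on 3 of 6 hypoxic arrays. CA12 and DDIT4 were not called, with 0.33 ± 0.19 and -0.30 ± 0.14.

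Promoter sequence is shown for 6 genes of the response that rose and that carry the HIF core ACGTG, and for 2 that fell, so that the letters can be read beside the values; they were picked after the motif search. The sequences are the 250 bases before a RefSeq transcript start on GRCh38.p14, 5′ to 3′ on the gene's strand, and capitals mark ACGTG on either strand, which reads CACGT on the other and CACGTG where both overlap.
HK2 (chr2:74834920-74835169, plus strand): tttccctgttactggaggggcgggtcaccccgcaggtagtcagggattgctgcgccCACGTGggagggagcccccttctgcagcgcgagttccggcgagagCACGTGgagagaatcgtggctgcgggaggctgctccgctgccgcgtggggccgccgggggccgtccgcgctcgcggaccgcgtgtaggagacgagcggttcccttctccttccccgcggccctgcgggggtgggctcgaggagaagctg
PFKFB3 (chr10:6202682-6202931, plus strand): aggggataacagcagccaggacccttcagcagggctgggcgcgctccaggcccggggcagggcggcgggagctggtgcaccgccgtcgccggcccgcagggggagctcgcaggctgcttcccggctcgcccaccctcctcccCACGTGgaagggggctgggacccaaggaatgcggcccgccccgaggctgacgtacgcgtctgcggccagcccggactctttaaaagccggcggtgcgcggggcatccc
WSB1 (chr17:27293864-27294113, plus strand): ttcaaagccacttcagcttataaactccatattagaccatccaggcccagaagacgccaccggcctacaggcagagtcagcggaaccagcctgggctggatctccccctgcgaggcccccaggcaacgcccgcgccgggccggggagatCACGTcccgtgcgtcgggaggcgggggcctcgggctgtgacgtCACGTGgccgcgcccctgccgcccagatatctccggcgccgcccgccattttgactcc
P4HA1 (chr10:73096867-73097116, minus strand): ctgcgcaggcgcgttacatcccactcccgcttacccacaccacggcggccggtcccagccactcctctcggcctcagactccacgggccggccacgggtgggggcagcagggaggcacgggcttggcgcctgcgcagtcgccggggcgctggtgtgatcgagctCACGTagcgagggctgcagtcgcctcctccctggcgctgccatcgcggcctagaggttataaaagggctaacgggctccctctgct
BNIP3 (chr10:131981924-131982173, minus strand): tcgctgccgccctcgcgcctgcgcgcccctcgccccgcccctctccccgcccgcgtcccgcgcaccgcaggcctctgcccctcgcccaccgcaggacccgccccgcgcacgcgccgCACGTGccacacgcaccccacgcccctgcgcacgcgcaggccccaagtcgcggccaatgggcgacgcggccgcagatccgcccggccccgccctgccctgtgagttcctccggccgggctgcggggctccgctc
LOX (chr5:122078260-122078509, minus strand): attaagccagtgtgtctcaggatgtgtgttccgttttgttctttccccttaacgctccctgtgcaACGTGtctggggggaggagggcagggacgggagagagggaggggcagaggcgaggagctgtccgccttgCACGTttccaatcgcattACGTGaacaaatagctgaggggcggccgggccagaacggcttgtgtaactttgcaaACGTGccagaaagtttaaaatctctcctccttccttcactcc
NOP16 (chr5:176388599-176388848, minus strand): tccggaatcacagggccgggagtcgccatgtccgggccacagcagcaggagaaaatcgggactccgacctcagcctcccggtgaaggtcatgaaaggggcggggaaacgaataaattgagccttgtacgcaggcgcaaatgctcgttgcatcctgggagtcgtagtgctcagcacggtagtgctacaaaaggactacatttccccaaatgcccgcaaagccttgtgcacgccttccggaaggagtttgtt
WDR12 (chr2:202911674-202911923, minus strand): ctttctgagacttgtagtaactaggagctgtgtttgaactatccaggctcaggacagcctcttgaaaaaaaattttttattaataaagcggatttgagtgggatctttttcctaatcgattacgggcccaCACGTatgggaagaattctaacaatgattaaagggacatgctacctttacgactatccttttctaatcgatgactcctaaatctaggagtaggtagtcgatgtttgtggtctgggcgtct
HK2 has CACGTG at 2 places in this window, 194 and 149 bases before the start, and PFKFB3 has it at 1 place, 108 bases before. WSB1 has matches 101 and 58 bases before the start, P4HA1 86 bases before and BNIP3 134 bases before, and LOX has 4. NOP16, which fell, has no match in its window, and WDR12, which also fell, has 1 match 120 bases before its start. A match is a description of these letters and not a bound site, and GCGTG was not searched.

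Over sets of windows the motif was present in 16 of 29 windows of the measured HIF targets (55.2%), against 18.5% of 35116 RefSeq windows and 22.1% of those of the genes tested. It was in 30.5% of windows of genes that rose at least 2-fold in each line and in 24.8% of those that fell as much. In the whole shared response it was in 23.1% of windows of genes that rose and 23.7% of those that fell. The longer CACGTG was in 24.1% of HIF target windows and 7.97% of those of the genes tested. It was in 15.5% of windows of genes that rose at least 2-fold in each line and 11.7% of those that fell as much. Genes may be listed as HIF targets in part through such sites, so the share in that list is a description. The HIF target windows had a median of 68.4% G and C, against 64% for the genes tested. VEGFA has no window in the table used, and those of IGFBP3 and KDM3A hold no match. Of other genes that rose, ENO2 and FAM13A had a match, and EGLN3, TMEM45A and SLC30A1 had none. Of other genes that fell, GART, RUVBL1 and ODC1 had a match, and MRPL20, MRPL24, NOP2, PRMT6, PSMC4 and RPS7 had none. For PFKFB3, FAM13A, GART, RUVBL1 and ODC1 not every window held a match.

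Glucose uptake and glycolysis genes split. Of 21 measured, 10 rose and 2 fell, with a median difference of 0.47; 7 of the risers were shared, and without the 4 mutant hypoxic arrays 14 rose and none of the 21 fell; 1 fell without any 1 of 6 arrays (both aerobic arrays of each mutant line and both E746-E750 hypoxic arrays). SLC2A3, the neuronal glucose transporter GLUT3, had 12.49, 12.68 and 12.75 in hypoxic cells and 8.48, 8.78 and 9.23 in aerobic cells, and rose by 3.86 ± 0.13 (adjusted p = 3.07e-08), with 3.48 in L858R, 3.82 in E746-E750 and 4.27 in WT cells. SLC2A1, the transporter GLUT1, had 12.56, 13.01 and 13.47 in hypoxic and 11.03, 11.32 and 11.49 in aerobic cells, with a difference of 1.72 ± 0.14 that varied little by line: 1.69 in L858R, 1.66 in E746-E750 and 1.79 in WT cells. ENO2, an enolase best known from neurons, rose by 4.92 ± 0.18 (adjusted p = 3.64e-08), a 30.3-fold change, with 4.54 in L858R, 5.50 in E746-E750 and 4.73 in WT cells. ALDOC, the aldolase of brain, rose by 1.82 ± 0.12. The enzymes that were not called include LDHA, PGK1, GAPDH, ENO1 and ALDOA, all detected on every array, with differences of 0.22, -0.51, -0.37, 0.13 and 0.20. LDHA had 14.06, 14.63 and 14.72 in hypoxic cells, against 14.20, 14.33 and 14.44 in aerobic cells, so that its hypoxic arrays spread more widely than its aerobic arrays. PGAM1, a phosphoglycerate mutase, was called lower with -2.87 ± 0.94 by its brightest probe and had -4.67 in L858R, -4.87 in E746-E750 and 0.91 in WT cells.

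In glycogen metabolism 5 of 11 measured genes rose and 1 fell, all 6 shared. GBE1, the branching enzyme, rose by 2.13 ± 0.18 (adjusted p = 1.34e-05), with 10.68, 11.49 and 11.77 in hypoxic cells, against 9.05, 9.17 and 9.56 in aerobic cells. PGM2, which interconverts sugar phosphates, rose by 1.62 ± 0.14. PYGB, a phosphorylase that breaks glycogen down, fell with -1.86 ± 0.52 (adjusted p = 0.0175), and was -2.47 and not called with the authors' processed values. The counts were 7 higher and 3 lower without the 4 mutant hypoxic arrays, and 7 and 2 without L858R hypoxic replicate 2 alone.

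Of 16 measured genes of collagen modification and matrix, 8 rose and 1 fell, all 9 shared. LOX, the lysyl oxidase that cross-links collagen, had 9.49, 11.60 and 11.84 in hypoxic cells and 6.98, 7.18 and 7.25 in aerobic cells. It rose by 3.95 ± 0.30 (adjusted p = 5.87e-06), a 15.4-fold change, and its size differed between lines, with 2.74 in L858R, 4.49 in E746-E750 and 4.61 in WT cells (F test, adjusted p = 0.0306). P4HA1, a subunit of the hydroxylase that acts on collagen proline, had 12.03, 12.20 and 12.41 in hypoxic and 9.64, 9.81 and 9.95 in aerobic cells and rose by 2.42 ± 0.09, with 2.36 in L858R, 2.58 in E746-E750 and 2.33 in WT cells. PLOD2, a collagen lysine hydroxylase, rose by 1.32 ± 0.12 and 1.09 ± 0.25 by its 2 brightest probes, and was 0.69 and not called with the mean of its 3 probes. The third probe gave -0.33 ± 0.61 (adjusted p = 0.695), with -1.63 in L858R, -1.23 in E746-E750 and 1.86 in WT cells. The collagen chains COL4A1, COL4A2, COL5A1 and COL7A1 were not called, with 0.00, 0.07, 0.18 and -0.02; COL5A1 was detected on 3 of 6 aerobic arrays. COLGALT1, which adds galactose to collagen, was the member that fell, with -1.64 ± 0.32.

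Secreted growth and vascular factors also rose more often than they fell, 9 against 3 of 17 measured, and 12 against 3 without the 4 mutant hypoxic arrays. Besides IGFBP3 and VEGFA, STC1, the hormone stanniocalcin, rose by 3.89 ± 0.16, and TGFA, a ligand of EGFR itself, rose by 1.05 ± 0.13 and 0.94 ± 0.29 by its 2 probes (adjusted p = 0.000188 and 0.0281). PDGFA, a platelet-derived growth factor chain, fell by its 2 brightest probes. The first gave -1.31 ± 0.09, and the second, which 1 of 6 hypoxic arrays detected, gave -0.68 ± 0.09. The third, detected on 3 of 6 hypoxic and 1 of 6 aerobic arrays, was not called, with 0.10 ± 0.11. By the brightest probe PDGFA had 7.14, 7.51 and 8.01 in hypoxic cells, against 8.63, 8.75 and 9.39 in aerobic cells. Its differences by line were close, with -1.23 in L858R, -1.40 in E746-E750 and -1.31 in WT cells. EREG, another EGFR ligand, fell with -0.64 ± 0.10. EGFR itself was called higher by its brightest probe, with 0.75 ± 0.18, and not by the second, with 0.40 ± 0.25 (adjusted p = 0.239). The brightest probe gave 0.66 in L858R, 0.83 in E746-E750 and 0.77 in WT cells, and the second -0.01, -0.07 and 1.29. Levels by the brightest probe were 9.91, 10.69 and 11.12 in hypoxic cells and 9.59, 9.86 and 10.21 in aerobic cells. Whether a probe reads the introduced EGFR or the cells' own was not tested.

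Within the oxygen-sensing machinery, 6 of 14 measured genes rose (42.9%) and 3 fell (21.4%), against 19.8% and 17.1% of all genes. Without E746-E750 aerobic replicate 1 the counts were 4 and 1. EGLN3, a prolyl hydroxylase that marks HIF, had 8.35, 9.24 and 10.58 in hypoxic cells, against 6.34, 6.51 and 6.68 in aerobic cells, where 4 of 6 arrays detected it. It rose by 2.91 ± 0.31 (adjusted p = 5.13e-05), with 2.88 in L858R, 3.04 in E746-E750 and 2.82 in WT cells. EGLN1, the main HIF prolyl hydroxylase, rose by 1.13 ± 0.40, and CITED2, which competes with HIF for its coactivator, by 1.33 ± 0.14. ARNT2, a partner of HIF alpha subunits, was detected on 6 of 6 hypoxic arrays and 0 of 6 aerobic arrays and was at least 2.08-fold higher in hypoxic cells. It passed the filter through the hypoxic arrays alone, and of the 12 genes of this list detected in both oxygen groups 5 rose and 3 fell. HIF1A, whose protein rather than its RNA is set by oxygen, had 7.88, 8.42 and 9.45 in hypoxic cells and 8.85, 9.21 and 9.37 in aerobic cells. It was called lower, with -0.73 ± 0.21 by the brightest probe and -1.92 ± 0.39 by the second (adjusted p = 0.0219 and 0.00371), and -1.39 ± 0.20 by the third, which 3 of 6 hypoxic arrays detected. Without E746-E750 aerobic replicate 1 the HIF1A difference was -0.67 with adjusted p = 0.0567. EPAS1, the HIF2 alpha subunit, was not called, with 0.27 ± 0.498 (adjusted p = 0.701) and -0.55 in L858R, 0.78 in E746-E750 and 0.58 in WT cells; without L858R hypoxic replicate 2 it was 0.82 and called. EGLN2 and VHL were called lower by their brightest probes, with -0.503 ± 0.18 and -0.72 ± 0.20.

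Histone demethylases of the Jumonji family need oxygen for catalysis. Of 15 measured, 9 rose and none of the 15 fell, with a median difference of 0.54; without the 4 mutant hypoxic arrays 11 rose and 1 fell, and without L858R hypoxic replicate 2 alone 9 rose and 1 fell. KDM6A, which removes the repressive methyl marks set by Polycomb, rose by 1.65 ± 0.17 (adjusted p = 5.13e-05), with 1.71 in L858R, 1.96 in E746-E750 and 1.29 in WT cells. JMJD6, an oxygenase of arginine and lysine, had 8.12, 8.35 and 8.75 in hypoxic cells, against 6.74, 6.86 and 7.09 in aerobic cells, and rose by 1.502 ± 0.10. KDM5B, which removes methyl marks of active promoters, rose by 1.23 ± 0.20, with 1.45 in L858R, 1.83 in E746-E750 and 0.43 in WT cells, and its size differed between lines (F test, adjusted p = 0.0196).

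Of 14 measured genes of mitophagy and autophagy, 9 rose and 1 fell, and 8 of the risers were shared. BNIP3, a mitochondrial protein that recruits autophagosomes, had 13.40, 13.56 and 14.05 in hypoxic cells and 11.80, 12.02 and 12.37 in aerobic cells and rose by 1.58 ± 0.10, with 1.49 in L858R, 1.65 in E746-E750 and 1.62 in WT cells. ULK1, the kinase that starts autophagy, rose by 1.35 ± 0.12 and 1.43 ± 0.14 by its 2 probes. BNIP3L, the relative of BNIP3, rose by 1.58 ± 0.47 and 2.05 ± 0.22; the call by the brightest probe was lost without any 1 of the 4 E746-E750 arrays, where the difference was 1.45 to 1.54. MAP1LC3B, the autophagosome protein LC3, rose by 1.75 ± 0.31 with 2.66 in L858R, 2.22 in E746-E750 and 0.36 in WT cells, and that size differed between lines (F test, adjusted p = 0.000487). ATG7, a ligase-like enzyme of autophagosome growth, fell with -0.72 ± 0.14.

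Sterol and fatty acid synthesis genes rose more often than the background, 12 of 25 measured, while 3 fell; without the 4 mutant hypoxic arrays 19 rose and 3 fell. INSIG1, which holds the sterol sensor in the endoplasmic reticulum, had 12.37, 12.65 and 12.89 in hypoxic cells, against 9.77, 11.35 and 11.69 in aerobic cells. It rose by 1.69 ± 0.30 and 2.15 ± 0.29 by its 2 probes, with 0.91 in L858R, 1.17 in E746-E750 and 2.9995 in WT cells by the brightest probe and a size that differed between lines (F test, adjusted p = 0.00335). LSS, which closes the sterol rings, rose by 1.21 ± 0.28 and by 1.27 ± 0.13 with the second probe, which 2 of 6 aerobic arrays detected; the third was not called, with 0.34 ± 0.18. The fatty acid elongase ELOVL6 fell with -1.26 ± 0.18 and -1.91 ± 0.36, and ACACA, the acetyl-CoA carboxylase at the entry to fatty acid synthesis, with -0.72 ± 0.18 and -0.62 ± 0.19.

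Ribosome biogenesis stood at the other end. Of 28 measured genes 25 fell and none of the 28 rose, 21 of them in the shared response, with a median difference of -1.22. The counts were 27 lower and 1 higher without the 4 mutant hypoxic arrays. Of 13 with 2 or more probes, 8 fell by both. NOP16, a nucleolar protein of the large ribosomal subunit, had 6.69, 7.21 and 7.63 in hypoxic cells and 9.83, 10.20 and 10.38 in aerobic cells. The groups did not overlap, and the hypoxic arrays lay near the detection level. It fell with -3.02 ± 0.15 (adjusted p = 3.68e-07), an 8.09-fold change, and with -3.45 ± 0.12 by the second probe; by line the brightest probe gave -2.64 in L858R, -2.95 in E746-E750 and -3.45 in WT cells. NOP2, which methylates ribosomal RNA, fell with -2.56 ± 0.22 by the brightest probe and -1.83 ± 0.13 by the second, which 1 of 6 hypoxic arrays detected. WDR12, a partner of PES1 and BOP1 in large-subunit assembly, had 7.88, 7.96 and 8.15 in hypoxic cells, against 9.82, 9.95 and 10.14 in aerobic cells. Its fall of -1.996 ± 0.09 (adjusted p = 2.11e-07) varied little by line, with -2.12 in L858R, -1.92 in E746-E750 and -1.96 in WT cells. NIP7 and RRS1, both of large-subunit assembly and with 1 probe each, fell with -2.68 ± 0.11 and -2.59 ± 0.16. FBL, NCL and UTP20 were not called, with 0.20 ± 0.17, -0.44 ± 0.16 and -0.21 ± 0.12, the last detected on 1 of 6 hypoxic and 2 of 6 aerobic arrays.

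The structural proteins of the cytosolic ribosome did not share that pattern of counts: of 23 measured, 1 rose and 1 fell (4.35% each), against 19.8% and 17.1% of all genes. The median difference was -0.07, and leaving out 1 array gave 0 to 2 in each direction. RPL23 rose by 0.34 ± 0.11, a call that was lost without any 1 of 7 arrays (both L858R and both E746-E750 aerobic arrays, WT aerobic replicate 2, WT hypoxic replicate 1 and E746-E750 hypoxic replicate 2), where it was 0.31 to 0.35, and with the authors' processed values, where it was 0.35. RPS2 was called lower with -2.68 ± 0.93, with -3.85 in L858R, -4.16 in E746-E750 and -0.02 in WT cells, and was not called without any 1 of 6 arrays (the 4 E746-E750 arrays and the 2 L858R aerobic arrays), where it was -2.86 to -2.13. RPS7, outside that list, was among the lowest genes by both probes, with -2.85 ± 0.55 and -3.25 ± 0.70. Its levels were 7.04, 8.14 and 11.27 in hypoxic cells, against 11.49, 11.70 and 11.86 in aerobic cells. The fall was -3.69 in L858R, -4.39 in E746-E750 and -0.46 in WT cells and differed between lines (F test, adjusted p = 0.00497).

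MYC, the transcription factor that drives ribosome and nucleotide synthesis genes, had 8.28, 9.36 and 9.93 in hypoxic cells and 11.17, 11.47 and 11.72 in aerobic cells. It fell with -2.17 ± 0.18 (adjusted p = 1.27e-05) and -1.64 ± 0.23 by the second probe, with no overlap and with -2.82 in L858R, -1.84 in E746-E750 and -1.85 in WT cells. In its network of 9 measured genes 3 rose (33.3%) and 2 fell (22.2%), against 19.8% and 17.1% of all genes. MXD1, an antagonist that competes for the partner MAX, rose by 2.35 ± 0.26, with 2.73 in L858R, 3.05 in E746-E750 and 1.28 in WT cells and a size that differed between lines (F test, adjusted p = 0.0114). MNT, another antagonist, rose by 0.63 ± 0.13, and MLX, a relative of MAX, fell with -0.76 ± 0.20. Without the 4 mutant hypoxic arrays 5 of the 9 rose and 4 fell, and without L858R hypoxic replicate 2 alone 4 fell.

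Purine and pyrimidine synthesis had 11 of 20 measured genes lower and none of the 20 higher. DHODH, 1 of these 11, was detected on no hypoxic array and passed the filter through the aerobic arrays alone. Of the 18 detected in both oxygen groups 10 fell and none of the 18 rose. GART, which carries several steps of purine ring synthesis, fell with -1.90 ± 0.20 and -2.05 ± 0.16 by its 2 brightest probes (adjusted p = 5.22e-05 and 8.36e-06). The third, detected on 2 of 6 hypoxic and 3 of 6 aerobic arrays, was not called, with -0.07 ± 0.11. By the brightest probe GART had 8.21, 8.90 and 9.59 in hypoxic cells and 10.69, 10.73 and 10.90 in aerobic cells. DCTPP1, which clears the nucleotide dCTP, fell with -1.86 ± 0.14 and -1.78 ± 0.16, and PFAS, another purine enzyme, with -1.52 ± 0.18. TYMS, the thymidylate synthase, and RRM1, a subunit of ribonucleotide reductase, were not called, with 0.497 ± 0.28 and 0.23 ± 0.09. When the 4 mutant hypoxic arrays were left out, 12 fell and 3 rose; 3 also rose without either L858R hypoxic array, and 1 without WT aerobic replicate 2.

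In methionine and polyamine metabolism 5 of 11 measured genes fell and none of the 11 rose. AMD1, which makes the aminopropyl donor for polyamines, had 6.11, 6.66 and 7.59 in hypoxic cells, where 4 of 6 arrays detected it, against 9.17, 9.30 and 9.59 in aerobic cells. It fell with -2.60 ± 0.19 (adjusted p = 5.45e-06), with -2.79 in L858R, -3.08 in E746-E750 and -1.92 in WT cells. ODC1, the ornithine decarboxylase at the start of the pathway, fell with -1.95 ± 0.37, with -1.47 in L858R, -1.30 in E746-E750 and -3.09 in WT cells. MAT2A, which makes S-adenosylmethionine, was called lower with -1.37 ± 0.41 and differed between lines (F test, adjusted p = 0.000408), with -0.79 in L858R, -0.10 in E746-E750 and -3.21 in WT cells. The MAT2A call was lost without WT aerobic replicate 1 or 2 or WT hypoxic replicate 1, where the difference was -1.15 to -1.12. When the 4 mutant hypoxic arrays were left out, 8 of the 11 fell and 1 rose, and without L858R hypoxic replicate 2 alone 7 fell and 1 rose.

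Mitochondrial translation and import fell as a list, with 15 of 22 measured genes lower, none of the 22 higher and a median difference of -0.70; 17 fell without the 4 mutant hypoxic arrays. MRPS12, a protein of the small mitochondrial ribosomal subunit, had 10.27, 10.71 and 10.96 in hypoxic cells, against 12.07, 12.15 and 12.40 in aerobic cells. It fell with -1.53 ± 0.12 and -1.40 ± 0.09 by its 2 brightest probes, with -1.61 in L858R, -1.64 in E746-E750 and -1.35 in WT cells. MRPL24, of the large subunit, fell with -2.02 ± 0.24 and -2.38 ± 0.36, and MRPL12, with 1 probe, with -2.68 ± 0.33. TOMM40, the pore of the outer membrane, fell with -1.54 ± 0.14. Oxidative phosphorylation itself had 2 of 22 measured genes higher and 2 lower (9.09% each), against 19.8% and 17.1% of all genes. Without the 4 mutant hypoxic arrays 4 were higher and 4 lower, without L858R hypoxic replicate 2 alone 4 and 3, and without any 1 of 9 other arrays 1 was left in at least 1 direction. The TCA cycle and pyruvate entry list had 3 of 17 higher (17.6%) and none of the 17 lower, against 19.8% and 17.1% of all genes. Of these 17, 3 were higher and 3 lower without the 4 mutant hypoxic arrays, 6 and 3 without L858R hypoxic replicate 2 alone and 4 and 2 without L858R hypoxic replicate 1 alone. UQCRC2, a core protein of complex III, rose by 0.69 ± 0.11, and NDUFS1, of complex I, fell with -0.39 ± 0.10. MPC2, a subunit of the mitochondrial pyruvate carrier, rose by 1.12 ± 0.17. PDK1, the kinase that shuts pyruvate dehydrogenase, was not called, with 0.47 ± 0.17 and detection on 4 of 6 hypoxic and 0 of 6 aerobic arrays.

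METTL1 and PRMT6 were among the lowest genes outside these lists. METTL1, which methylates tRNA, had 6.76, 6.90 and 7.75 in hypoxic cells and 9.59, 9.64 and 9.75 in aerobic cells, and fell with -2.63 ± 0.15 and -2.05 ± 0.13 by its 2 probes (adjusted p = 1.15e-06 and 2.47e-06). PRMT6, an arginine methyltransferase of histones, fell with -2.26 ± 0.14 and -2.15 ± 0.09, with -2.21 in L858R, -2.03 in E746-E750 and -2.19 in WT cells by the second probe. RUVBL1, an ATPase of chromatin remodelling and of the assembly of nucleolar particles, fell with -2.96 ± 0.32 and -2.33 ± 0.19, with -3.55 in L858R, -3.50 in E746-E750 and -1.83 in WT cells. The cytosolic tRNA synthetases had 1 of 18 measured genes higher (5.56%) and 2 lower (11.1%), against 19.8% and 17.1% of all genes. Without the 4 mutant hypoxic arrays 13 of the 18 were lower and none of the 18 higher, and without L858R hypoxic replicate 2 alone 2 were higher and 6 lower; 1 was lower without any 1 of 7 other arrays. WARS1, the synthetase for tryptophan, was the riser, with 2.60 in L858R, 2.04 in E746-E750 and 0.03 in WT cells by the brightest probe and an F test adjusted p of 0.00103. Chaperonin and heat shock proteins had 7 of 20 measured genes lower (35%) and none of the 20 higher, against 17.1% and 19.8% of all genes. Without the 4 mutant hypoxic arrays 10 were lower and 3 higher. HSPH1 fell with -1.39 ± 0.18 and BAG3 with -1.30 ± 0.19; HSPH1 is a partner of HSP70, and BAG3 steers it to autophagy.

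Genes of DNA replication moved in both directions, 4 of 31 measured higher (12.9%) and 7 lower (22.6%), against 19.8% and 17.1% of all genes. Without L858R hypoxic replicate 2 the counts were 7 and 12, and without the 4 mutant hypoxic arrays 7 and 9. MCM3, MCM4, MCM6 and MCM7 are subunits of the replicative helicase. MCM6 fell with -1.63 ± 0.19 (adjusted p = 0.000116), with -1.71 in L858R, -1.90 in E746-E750 and -1.29 in WT cells, and MCM3 with -1.38 ± 0.21 and -1.69 ± 0.25 by its 2 probes. MCM4 had 7.74, 8.23 and 8.43 in hypoxic cells and 8.92, 10.23 and 10.69 in aerobic cells. Its fall of -1.76 ± 0.27 was -2.23 in L858R, -2.43 in E746-E750 and -0.62 in WT cells and differed between lines (F test, adjusted p = 0.00852). MCM7 was lower by both probes, the second of which 2 of 6 hypoxic arrays detected, with -0.21 and -0.05 in WT cells, and was not called without the 4 mutant hypoxic arrays. MCM2 and MCM5, of the same ring, were not called, with -0.37 ± 0.28 and -0.79 ± 0.29.

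Of 25 measured genes of double-strand break repair, 3 were higher and 1 lower, against 19.8% and 17.1% of all genes. The counts were 2 and 8 without the 4 mutant hypoxic arrays, against 20.2% and 27.1% of all genes there. They were 5 lower without either L858R hypoxic array, and 5 were higher without WT hypoxic replicate 2 or L858R hypoxic replicate 1; none of the 25 was lower without any 1 of 7 arrays. BRCA1, a mediator of homologous recombination, had 7.28, 7.47 and 8.35 in hypoxic cells, against 7.13, 7.26 and 7.59 in aerobic cells, and was not called, with 0.25 ± 0.17 and 0.17 ± 0.18 by its 2 probes (adjusted p = 0.284 and 0.463). RAD54L, a motor of strand exchange, was called higher with 0.47 ± 0.12, but not without the 4 mutant hypoxic arrays. In base excision and mismatch repair 2 of 22 measured genes rose (9.09%) and 8 fell (36.4%), against 19.8% and 17.1% of all genes. Without the 4 mutant hypoxic arrays 1 rose and 12 fell. OGG1, the glycosylase for oxidised guanine, fell with -1.34 ± 0.18 and -0.68 ± 0.09 by its 2 probes, and 2 of 6 hypoxic arrays detected the first and 1 of 6 the second, against 6 of 6 aerobic arrays for both. PARP2, a sensor of strand breaks, rose by 1.22 ± 0.20 and 1.001 ± 0.13.

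Mitosis genes fell in 12 of 26 measured (46.2%) and rose in 4 (15.4%), against 17.1% and 19.8% of all genes. Without the 4 mutant hypoxic arrays 13 fell and 4 rose, and without either L858R aerobic array 2 rose. CDC20, which turns on the anaphase-promoting complex, had 10.56, 11.07 and 11.995 in hypoxic cells and 12.71, 12.87 and 12.99 in aerobic cells. It fell with -1.71 ± 0.21 (adjusted p = 0.000152), with -1.48 in L858R, -2.11 in E746-E750 and -1.54 in WT cells. CENPA, the centromeric histone, fell with -0.99 ± 0.17 and -0.99 ± 0.20 by its 2 probes, and AURKA, a kinase of the spindle poles, with -0.43 ± 0.10 and -0.49 ± 0.09. With median centring AURKA was -0.36 and not called. In G1 control 6 of 18 measured genes fell (33.3%) and 4 were called higher (22.2%), against 17.1% and 19.8% of all genes. CDKN1C, 1 of these 4, was detected on no aerobic array and passed the filter through the hypoxic arrays alone. Of the 17 genes of this list detected in both oxygen groups 3 rose and 6 fell. Of the genes called higher, 1 or 2 were left without any 1 of 9 arrays. CCND1, cyclin D1, had 10.05, 10.71 and 11.26 in hypoxic cells, against 12.12, 12.29 and 12.40 in aerobic cells, and fell with -1.62 ± 0.17 (adjusted p = 5.9e-05), with -1.73 in L858R, -1.66 in E746-E750 and -1.48 in WT cells. CCND3 fell with -1.22 ± 0.19 and SKP2, which marks the inhibitor p27 for destruction, with -0.87 ± 0.17 and -1.10 ± 0.24 by its 2 brightest probes. CCNG2, a cyclin that restrains the cycle, was among the risers past 2-fold by both probes, with 1.67 ± 0.10.

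Stress genes gave a mixed list. Of 18 measured genes of the ATF4 and endoplasmic reticulum response 4 rose (22.2%) and 1 fell (5.56%), against 19.8% and 17.1% of all genes. Without the 4 mutant hypoxic arrays 5 rose and 11 fell, against 20.2% and 27.1% of all genes there. Without L858R hypoxic replicate 2 alone 3 fell. DDIT3, the stress factor CHOP, had 9.26, 10.81 and 12.36 in hypoxic cells and 8.01, 8.63 and 9.35 in aerobic cells and rose by 2.22 ± 0.45, with 2.18 in L858R, 3.07 in E746-E750 and 1.40 in WT cells. DNAJB9, a chaperone of the endoplasmic reticulum, was called higher with 3.72 in L858R, 2.89 in E746-E750 and 0.19 in WT cells, and its size differed between lines (F test, adjusted p = 0.00253). Of 15 measured p53 targets 9 rose and 2 fell, and 10 rose and none of the 15 fell without the 4 mutant hypoxic arrays; without any 1 of the 8 arrays of the mutant lines 0 or 1 fell. GDF15, a secreted stress cytokine, had 11.32, 12.36 and 13.68 in hypoxic cells, against 9.08, 9.57 and 9.79 in aerobic cells, and rose by 2.92 ± 0.35 (adjusted p = 0.000135). TNFRSF10B, a death receptor, rose by 1.22 ± 0.15 and 1.08 ± 0.33 by its 2 brightest probes, with -0.26 ± 0.17 and no call by the third, which 2 of 6 hypoxic arrays detected. CDKN1A, the cell cycle inhibitor p21, was called higher by its brightest probe with 0.30 ± 0.09. TXNIP and 4 arrestin-domain relatives were not called by limma, and among these 5 genes ARRDC1 alone passed at an unadjusted p (0.032). Of these 5, 2 were higher and 2 lower without the 4 mutant hypoxic arrays, and without L858R hypoxic replicate 1 alone 1 was lower.

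Immediate early genes and inhibitors of ERK signalling, the pathway downstream of EGFR, had 4 of 19 measured genes higher and 6 lower, against 19.8% and 17.1% of all genes. Without the 4 mutant hypoxic arrays 7 were higher and 6 lower. DUSP4, 1 of the 6 lower in the main fit, was detected on no hypoxic array and passed the filter through the aerobic arrays alone. Of the 18 detected in both oxygen groups 4 rose and 5 fell. SPRY1, an inhibitor of receptor signalling, rose by 2.002 ± 0.15 and 1.68 ± 0.22 by its 2 probes, with 9.47, 9.76 and 9.82 in hypoxic cells and 7.06, 7.85 and 7.98 in aerobic cells. JUN, an AP-1 subunit, rose by 1.82 ± 0.19, with 2.08 in L858R, 1.33 in E746-E750 and 2.05 in WT cells. EGR1, a transcription factor induced by growth factors, was called lower with -2.69 in L858R, -2.39 in E746-E750 and -0.25 in WT cells, and was not called without the 4 mutant hypoxic arrays. DUSP6, the phosphatase of ERK, was not called, with -0.09 ± 0.27.

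Among inflammatory genes 3 of 13 measured rose and 2 fell, close to the 19.8% and 17.1% of all genes, and 5 fell without L858R hypoxic replicate 2. CXCL8, the neutrophil attractant IL-8, had 8.43, 8.78 and 10.87 in hypoxic cells and 6.65, 7.23 and 7.67 in aerobic cells, and rose by 1.99 ± 0.34 and 0.82 ± 0.16 by its 2 probes. TNFAIP3, an inhibitor of NF-kappaB, rose by 1.90 ± 0.22, with 1.33 in L858R, 1.60 in E746-E750 and 2.76 in WT cells and a size that differed between lines (F test, adjusted p = 0.0269). S100A9, a subunit of calprotectin, fell with -1.94 ± 0.33. Interferon-stimulated genes had 3 of 14 higher (21.4%) and 1 lower (7.14%), against 19.8% and 17.1% of all genes. The 1 lower, IFIT3, was detected on no hypoxic array and passed the filter through the aerobic arrays alone. Of the 13 detected in both oxygen groups 3 rose and none of the 13 fell. Of the 14, 5 were higher without L858R hypoxic replicate 1, and none of the 14 was lower without WT hypoxic replicate 1. Without L858R hypoxic replicate 2, 2 were lower, and without the 4 mutant hypoxic arrays 4 were higher and 2 lower. NRF2 targets had 3 of 14 higher and 2 lower, also close to the shares of all genes, and 5 higher and 3 lower without the 4 mutant hypoxic arrays. HMOX1, the haem oxygenase, rose by 1.01 ± 0.11, and NQO1, a quinone reductase, fell with -0.82 ± 0.13. Of 14 measured SR splicing factors and their kinases 7 fell (50%) and 2 rose (14.3%), against 17.1% and 19.8% of all genes. SRSF7 had 7.06, 7.14 and 7.76 in hypoxic cells, against 9.48, 9.61 and 10.36 in aerobic cells, and fell with -2.53 ± 0.18 (adjusted p = 3.53e-06), with -2.15 in L858R, -2.28 in E746-E750 and -3.15 in WT cells. SRSF10 fell with -1.64 ± 0.20 and -0.77 ± 0.14 by its 2 probes.

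The arrays carried the markers of airway basal cells. All 8 basal markers with a probe were detected, KRT5 the brightest, and their summed level was 13.9 to 14.5 in hypoxic cells and 14.2 to 14.5 in aerobic cells on the log2 scale. Of the 8 basal markers 1 was called higher (12.5%) and 2 lower (25%), against 19.8% and 17.1% of all genes. Of these 8, KRT15 was called higher with 0.54 ± 0.12, but not without the 4 mutant hypoxic arrays, where it was 0.19, or with median centring, where it was 0.49, and KRT14 and PDPN were lower with -0.88 ± 0.18 and -1.69 ± 0.16; without the 4 mutant hypoxic arrays none of the 8 was higher and 4 were lower, and without L858R hypoxic replicate 2 alone 2 were higher. Among squamous markers, genes of the cornified layer, 3 of 6 measured rose, while 6 of the 14 with a probe, KRT1 and SPRR3 among them, were detected on no array; the summed level was 11.5 to 12.5 in hypoxic and 11.3 to 11.7 in aerobic cells. LCE1B had 8.64, 10.23 and 11.02 in hypoxic cells, against 6.49, 6.70 and 6.93 in aerobic cells, and rose by 3.17 ± 0.26, with 4.03 in L858R, 3.36 in E746-E750 and 2.13 in WT cells (F test, adjusted p = 0.0136). FLG, filaggrin, was detected on the 4 mutant hypoxic arrays, on no WT hypoxic array and on 0 of 6 aerobic arrays, so that it passed the filter through hypoxic arrays alone. It was at least 7.87-fold higher in L858R and 3.78-fold higher in E746-E750 hypoxic cells, and no fold is given for WT cells. Of the 5 squamous markers detected in both oxygen groups 2 rose.

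Markers of other cells were detected in part. On at least 2 arrays 6 of 9 leukocyte, 7 of 12 mesenchymal, 3 of 8 alveolar, 2 of 8 secretory and ciliated and 1 of 8 endothelial markers with a probe were detected. Of the defining markers, PTPRC, CD3E and NKG7 of leukocytes, CDH5, VWF and KDR of endothelium, SFTPA1 and SFTPC of alveolar cells, FOXJ1 and SCGB3A1 of the airway surface, and COL3A1, DCN and LUM of mesenchymal cells were detected on no array. The summed levels ran from 10.6 to 12 in hypoxic and 10.4 to 10.7 in aerobic cells for leukocyte markers, with CD68 the brightest, and from 12.2 to 13.2 and 12.1 to 12.4 for mesenchymal markers, with VIM the brightest. They ran from 9.02 to 9.2 in hypoxic and 8.95 to 9.05 in aerobic cells for endothelial markers, from 9.31 to 9.47 and 9.22 to 9.3 for alveolar markers, and from 9.2 to 9.4 and 9.17 to 9.27 for secretory and ciliated markers. Of these lists 2 of 6 measured leukocyte, 1 of 7 mesenchymal, 1 of 1 endothelial and 1 of 3 alveolar markers were called higher, none of them lower, and 0 of 2 secretory and ciliated markers were called. Over all genes 19.8% were called higher and 17.1% lower. The 1 endothelial and 1 mesenchymal marker called, TEK and PDGFRB, and CSF1R of the 2 leukocyte markers were detected on no aerobic array and passed the filter through hypoxic arrays alone. When the 4 mutant hypoxic arrays were left out, 2 mesenchymal markers and none of the alveolar or endothelial ones were higher. Leaving out 1 array gave 0 to 2 mesenchymal, 0 or 1 endothelial, 1 or 2 alveolar and 1 or 2 leukocyte markers higher. The part of these markers in the other results was not tested. ACTB, the cytoskeletal actin, was not called, with -0.16 ± 0.08 (adjusted p = 0.146), but it was called lower with cyclic loess, at -0.26, and with the mean of its 3 probes, at -1.66. The third probe gave -4.55 ± 0.98 (adjusted p = 0.0051), with -6.84 in L858R, -6.67 in E746-E750 and -0.13 in WT cells.

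The size of the response differed between lines in a smaller set. The F test of line differences called 785 of 11926 genes (6.58%), among them 223 of the 3353 genes of the shared response and 43 of its 529 genes with 2 or more probes. In 186 of the 223 the difference was smaller in WT cells than in both mutant lines, and in 32 it was larger. These counts rest on the arrays used: they ran from 150 without WT aerobic replicate 1 to 8445 without L858R hypoxic replicate 1, with 4997 without L858R hypoxic replicate 2 and 151 to 457 without any 1 of the others. SLC30A1, which exports zinc from the cell, had 8.75, 10.60 and 10.97 in hypoxic cells, against 7.50, 7.77 and 8.70 in aerobic cells, and differed by 2.84 in L858R, 3.30 in E746-E750 and 0.34 in WT cells (F test, adjusted p = 0.00231); the second probe gave 2.88 in L858R, 2.73 in E746-E750 and 0.39 in WT cells. PSMC4, an ATPase of the proteasome, was detected on no mutant hypoxic array by its 2 brightest probes. By the first it was at least 11.1-fold lower in L858R and 13.6-fold lower in E746-E750 hypoxic cells, with -0.46 in WT cells (F test, adjusted p = 5.69e-05), and by the second at least 6.60-fold and 8.51-fold lower, with -0.11 in WT cells. MAEA, a subunit of the CTLH ubiquitin ligase, was also detected on no mutant hypoxic array by either probe. It was at least 9.88-fold lower in L858R and 11.5-fold lower in E746-E750 hypoxic cells by the brightest probe, with -0.17 in WT cells, and at least 3.05-fold and 3.496-fold lower by the second, with -0.35 in WT cells. MRPL20, of the mitochondrial ribosome, was -3.71 in L858R, -3.76 in E746-E750 and -0.86 in WT cells (F test, adjusted p = 0.018). Of these, SLC30A1 and MAEA were not called without the 4 mutant hypoxic arrays. The arrays that carry these larger falls in the mutant lines are those on which 18.1% to 45.8% of probe pairs moved apart. Deviations of their same-numbered replicates correlated at 0.75 between L858R and E746-E750 hypoxic cells, so the 2 mutant lines may not be independent here. The part of this in the line differences was not tested.

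The 3 genes with the widest gap between probes called in opposite directions were CRTAP, PCNA and TSPAN3. CRTAP, a partner of collagen prolyl hydroxylation, was detected on no mutant hypoxic array by its brightest probe, which was at least 12.1-fold lower in L858R and 13.8-fold lower in E746-E750 hypoxic cells and 0.26 in WT cells. It had 0.37 in L858R, 0.59 in E746-E750 and 0.63 in WT cells by the second. Its brightest probe lay at 5.99, 6.15 and 10.48 in hypoxic cells, against 10.04, 10.13 and 10.30 in aerobic cells, with the WT hypoxic arrays inside or above the aerobic range. PCNA, the sliding clamp of DNA replication, was 0.83 ± 0.12 by its brightest probe and -1.37 ± 0.17 by the second, and this opposition held in each line, with 0.77 in L858R, 0.73 in E746-E750 and 0.99 in WT cells by the brightest. The second probe was detected on no mutant hypoxic array and was at least 2.17-fold lower in L858R and 2.71-fold lower in E746-E750 hypoxic cells, with -0.70 in WT cells. TSPAN3, a membrane tetraspanin, was 0.42 ± 0.10 by the brightest probe and -1.78 ± 0.53 by the second, which gave -2.62 in L858R, -2.87 in E746-E750 and 0.15 in WT cells. For these genes the direction of the response depends on the probe read.

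**Figure D4:**
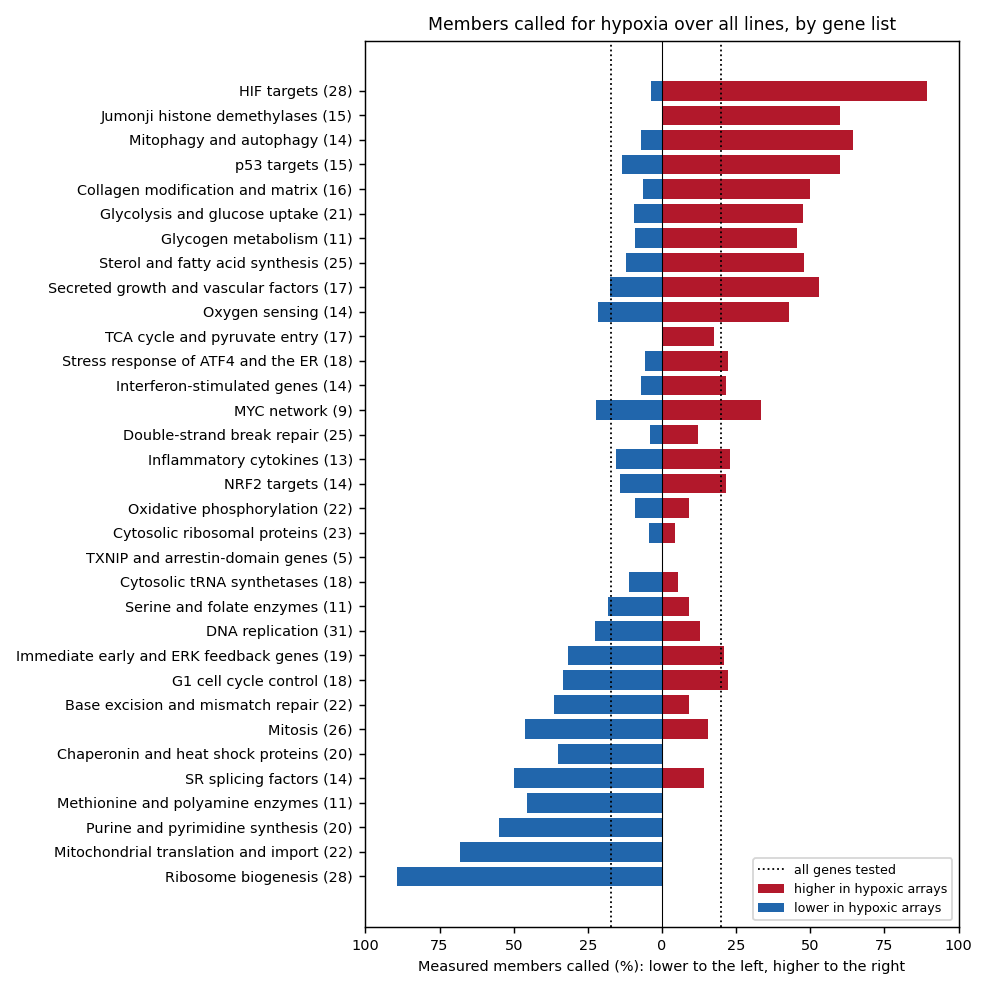
Share of the measured members of each gene list called higher (red, to the right) or lower (blue, to the left) in hypoxic than in aerobic arrays, with the number measured in brackets; dotted lines mark the shares over all genes tested, 19.8% higher and 17.1% lower. HIF targets stand at the top, with 25 of 28 higher, and ribosome biogenesis at the bottom, with 25 of 28 lower.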

How the data were processed

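RNA of 12 HBEC samples was read on Illumina bead arrays from biotinylated cRNA, per the labels' protocols. The deposited table holds raw linear intensity of 47323 probes with no background correction, as its values show. The authors' processed table holds log2 values on 1 common scale (median 3.11 on each array), made by steps not given in the sources used here and used as an alternative.

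Intensities were corrected with normexp (offset 50) and quantile normalized with limma 3.58.1 in R 4.3.3. A probe was detected above percentile 99 of the array's mirrored noise peak (density bandwidth 0.02 log2). The 21261 probes detected on at least 2 arrays were kept, 16023 of them named, and the brightest stood for its gene. Of 30121 probes with a gene, 30074 had symbols updated through RefSeq; 8 with several genes and 17202 without one were not named. The additive model had 8 residual degrees of freedom, the F test of line differences 6; tests were two-sided. The number of arrays limits the precision. Simulated data with known changes, the same spread on every array and no line differences checked that the fit recovers a set difference. They did not copy the wider spread of the mutant hypoxic arrays.

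The members and the gene lists were chosen with earlier results of these data known. Named genes follow a rule: the 10 highest and 10 lowest shared genes by both probes, up to 4 per list, fixed genes, 4 with line differences and 3 with opposed probes; other genes were named after their values were seen. CA9 had no kept named probe and is not analysed here, and another fixed gene is not reported here. Alternatives covered background, scaling, filter, probe choice, weights, blocks and each array left out. The deviations of same-numbered replicates correlated at 0.75 between the L858R and E746-E750 hypoxic groups, and between -0.20 and 0.21 in every other pair of groups. The fit was not paired. The part of that correlation in the agreement of the mutant lines was not tested.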

Additional observations from a re-analysis of the deposited data

Results flagged for a closer look

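A value was looked at again where the gap between the most extreme of 6 arrays and its neighbour as a share of the group's range exceeded Dixon's critical value. Of 286 values tested 29 passed. Chance flags about 1 in 20 where the 6 values are independent and come from 1 distribution. Here each 6 came from 3 lines and the 286 values share the same arrays, so that rate need not hold. In 22 of the 29 the extreme array was L858R hypoxic replicate 2. On that array the number of detected probes (gap ratio 0.719) and the upper quartile of raw intensity (0.628) lay apart from the other hypoxic arrays. The same array was extreme for HK2 (0.688), METTL1 (0.708), MRPL24 (0.735), BNIP3L (0.861), GYS1 (0.657), P4HA2 (0.754), NDUFS1 (0.66), MARS1 (0.7), CCT3 (0.687), PRPS1 (0.752), MCM7 (0.716) and NTHL1 (0.67). It was also extreme for AURKA (0.667), CDK4 (0.793), TNFRSF10B (0.704), DDB2 (0.71), CXCL8 (0.629), IRF9 (0.737), EPAS1 (0.703) and BRCA1 (0.762). L858R hypoxic replicate 1 was extreme for DCTPP1 (0.762), MCM4 (0.634) and SKP2 (0.65), E746-E750 hypoxic replicate 2 for WDR12 (0.626) and WT hypoxic replicate 2 for WSB1 (0.638). Among aerobic arrays WT replicate 1 was extreme for LOX (0.647) and E746-E750 replicate 1 for PDGFRB (0.728), which no aerobic array detected.

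The size of the hypoxic difference varied between lines by the F test for 21 named genes. Larger differences in both mutant lines than in WT cells were found for SLC30A1 (adjusted p = 0.00231), RPS7 (0.00497), MRPL20 (0.018), PSMC4 (5.69e-05), MAEA (0.000137), KDM5B (0.0196), MAP1LC3B (0.000487), WARS1 (0.00103), MCM4 (0.00852), OGG1 (0.041), MXD1 (0.0114), DNAJB9 (0.00253), LCN2 (0.00218), LCE1B (0.0136) and FLG (0.00852). FLG was detected on no aerobic array and no WT hypoxic array. It passed the filter through the mutant hypoxic arrays alone, where it was high, so its F test is a description. Smaller differences in both mutant lines than in WT cells were found for MAT2A (0.000408), INSIG1 (0.00335) and TNFAIP3 (0.0269). For LOX (0.0306) and IGFBP3 (0.0328) the E746-E750 difference lay near that of WT cells and the L858R difference was smaller than both. IGFBP3 had 3.66 in L858R, 5.80 in E746-E750 and 5.98 in WT cells. CRTAP (5.69e-05) was far lower in both mutant lines and 0.26 in WT cells by its brightest probe.

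Of 5235 kept probes without a gene name, 1196 were called, 623 higher and 573 lower in hypoxic cells; their genes are not named here.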

How the results depend on the processing

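Of 138 named genes with a call, 103 kept it in every alternative run and 122 kept it whichever 1 array was left out. The count for hypoxia over all lines was 3340 to 5824 with 1 array left out and 7342 with array weights, and that for hypoxia over all lines, all probes, 3726 with detection on all 12 arrays and 9897 with array weights. The shared response held 2648 to 4519 genes with 1 array left out and 319 at 2-fold in each line. The line differences were least stable: 2631 genes with median centring, 430 with detection on all 12 arrays, 5233 with both mutant hypoxic groups at 1 array and 150 to 8445 with 1 array left out; the cause was not tested. With the replicate number as a block 4338 genes were called, 3340 were shared and 674 differed between lines. Median centring gave 48.3% of calls higher, detection on all 12 arrays 59.6% and the 8 arrays without the mutant hypoxic ones 42.7%, against 53.6%. CRTAP turned to 0.53 with detection on all 12 arrays, which leaves only its other probe, and to 0.26 without the 4 mutant hypoxic arrays; PCNA turned to -0.27 and TSPAN3 to -0.68 with the mean of a gene's probes. Where an array was left out, its group's remaining array was taken to vary as the rest do. Differences of probes that few arrays of a group detected, counted beside each value, are limited by the background.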
